A study of Mus musculus with 5 samples.

Results

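The genes described here handle fatty acids and cholesterol. They were measured in ILC2s, the group 2 innate lymphoid cells, which live in tissues such as the lung and respond to the alarm cytokine IL-33. The set was chosen by name: 38 genes of fatty acid uptake, storage, oxidation and synthesis and of cholesterol synthesis and export. Of these, 34 had a probe set that the platform annotation pairs with that symbol alone, out of 22180 genes measured this way. Acsl1, Acsl3, Scd2 and Idi1 had none and were not analysed here. The cells came from lungs of naive adult male mice, 2 arrays of IL-33 knockout cells and 3 arrays of wild-type cells, each labelled as a biological replicate. The knocked-out segment of the gene, the strain, the age in weeks and the gates used to sort the cells are not given in the sources used here. All values are log2 signals, and a difference is IL-33 knockout minus wild type on that scale. Signals of different probe sets are not comparable as amounts, so each gene is compared with itself across arrays.

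Cells take up fatty acids with membrane receptors and after lipases have freed them from lipoproteins. Inside the cell, binding proteins carry them, acyl-CoA synthetases activate them, and they are then esterified into lipid droplets or oxidised in mitochondria. Cholesterol is made from acetyl-CoA through squalene under control of the SREBP transcription factors, and ABC transporters export it. In activated airway ILC2s, external fatty acids are known to be stored in droplets through DGAT1 and then used for growth and cytokine production.

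The average of the ILC2 markers overlapped between the genotypes, while not every single marker did. The mean of 13 of them, Gata3, Il7r and Il2ra among them, was 8.43 and 8.52 in knockout arrays and 8.45 to 8.63 in wild-type arrays. For 4 of the 13 the groups did not overlap, 30.8% against 18% of all genes tested. Icos, Rora and Il7r were higher and Il17rb was lower in knockout. Icos differed most, by 1.27, with 8.28 and 8.55 in knockout arrays against 7.07, 7.08 and 7.28 in wild type. Gata3, the transcription factor that defines ILC2s, read 8.21 and 7.89 in knockout arrays, against 8.21, 8.16 and 8.50 in wild type. Knockout replicate 2 read 7.91 for Xist, the X-inactivation RNA of female cells, against 3.10 in knockout replicate 1 and 2.35 to 3.10 in wild type, although every sample is labelled male. It also gave signals for Y-linked genes, of which Uty was highest and 2 others lowest in this array. Uty read 7.17, against 6.95 in knockout replicate 1 and 5.83 to 6.96 in wild type. Eif2s3y read 6.14, against 7.07 in knockout replicate 1 and 6.82 to 7.62 in wild type. Kdm5d read 4.79, against 5.57 in knockout replicate 1 and 5.57 to 5.63 in wild type. Il33, the targeted gene, read 3.79 and 3.95 in knockout arrays and 3.37, 3.39 and 3.32 in wild type. Its wild-type values lie under 3.56, the lower quartile of gene means, so there is little wild-type signal to lose. Whether its probes lie in the deleted segment is also not known here. For both reasons Il33 does not check the genotype labels. Knockout replicate 1 read 8.52 for the airway secretory gene Bpifa1, against 3.22 in knockout replicate 2 and 2.85 to 3.22 in wild type. Arrays often held identical values for a gene. Of the 32 members tested, 13 had 5 distinct values and 7 had 3 or fewer, and the spread of those few may be understated. In such bulk samples, fewer cells of a type and less RNA per cell cannot be told apart.

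Promoter windows of 3 genes are shown because sterol genes are a textbook case of shared control through a short promoter element bound by SREBPs. Cyp51 is the sterol synthesis gene with no overlap of the genotypes for which a window was given, and Hmgcs1 and Srebf2 are the members tested whose windows hold the letters TCACCCCA, the core of that sterol element. Srebf2 and Hmgcs1 were picked after the search. Each sequence is the 250 bases before the RefSeq transcript start in GRCm38.p6, 5′ to 3′ on the gene's strand. Capitals mark TCACCCCA, and CCAAT, the letters bound by NF-Y, or its reverse complement ATTGG.
Cyp51 (chr5:4104698-4104947, minus strand): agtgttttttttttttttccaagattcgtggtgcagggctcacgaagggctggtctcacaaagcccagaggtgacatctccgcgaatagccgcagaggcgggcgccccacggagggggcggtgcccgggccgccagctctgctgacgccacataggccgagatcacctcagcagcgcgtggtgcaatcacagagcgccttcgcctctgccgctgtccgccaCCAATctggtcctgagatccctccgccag
Hmgcs1 (chr13:119690101-119690350, plus strand): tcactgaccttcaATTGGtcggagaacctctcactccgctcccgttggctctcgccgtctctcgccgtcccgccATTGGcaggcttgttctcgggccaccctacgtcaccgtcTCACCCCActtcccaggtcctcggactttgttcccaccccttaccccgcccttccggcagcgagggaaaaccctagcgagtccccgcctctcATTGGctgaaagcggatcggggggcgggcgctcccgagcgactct
Srebf2 (chr15:82147019-82147268, plus strand): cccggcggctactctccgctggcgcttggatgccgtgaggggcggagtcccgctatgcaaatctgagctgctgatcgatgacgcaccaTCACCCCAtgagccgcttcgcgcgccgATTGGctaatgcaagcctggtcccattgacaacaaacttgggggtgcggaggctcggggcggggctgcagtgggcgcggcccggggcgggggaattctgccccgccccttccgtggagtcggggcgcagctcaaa

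On either strand, TCACCCCA stood in 1.34% of 32851 promoter windows and, among the 27 members with at least 1 window, in Hmgcs1, Srebf2 and Acsl1. Its shifted form CACCCCAC, which overlaps it, stood in 2.58% of all windows and in Hmgcs1 and Acsl1 among members. CCAAT stood in 33.8% of all windows, in a window of 18 of the 27 members across roles, and in one of each of the 5 sterol synthesis genes that had one, namely Cyp51, Dhcr7, Hmgcs1, Idi1 and Lss. The E-box CACGTG stood in 6.02% of all windows and, among members, in Dhcr7, Abca1 and Insig1. The shares are over windows, while a member counts where any of its windows matches. A gene with several windows has more chances of a match, so shares and member counts are not directly comparable. A match describes the letters in the window and does not show binding.

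Across all 32 members tested, no gene separated the genotypes after adjustment over 16635 genes. With limma and an adjusted p threshold of 0.05, 0 members were called, against 0% of all genes tested, and members' adjusted p ran from 0.490 to 1. An unadjusted p below 0.05 was found for 4 members, against 7.64% of all genes tested. Lpl, Fabp5 and Fdft1 were higher in knockout (5.05% of all genes tested) and Dgat2 was lower (2.59%). The knockout arrays lay both above or both below all wild-type arrays for 9 of the 32 members, 28.1%, against 18% of all genes tested. Of these, 6 were higher (11.6% of all genes) and 3 lower (6.32%). Cd36, one of the 6, passed the filter on dim genes only through its knockout arrays. Counting only genes above the filter in both genotypes, 8 of 31 members, 25.8%, had no overlap, against 17.5% of 16100 genes. Equal values lower the share over all genes: among genes with at least 4 distinct values it was 26.8%, and 8 of 25 such members had no overlap. Cd36 is again one of these 8, so that count includes a gene whose direction was fixed by the filter. The median difference of the members was -0.038, with 15 above and 17 below 0, against 0.039 over all genes tested.

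**Figure D1:**
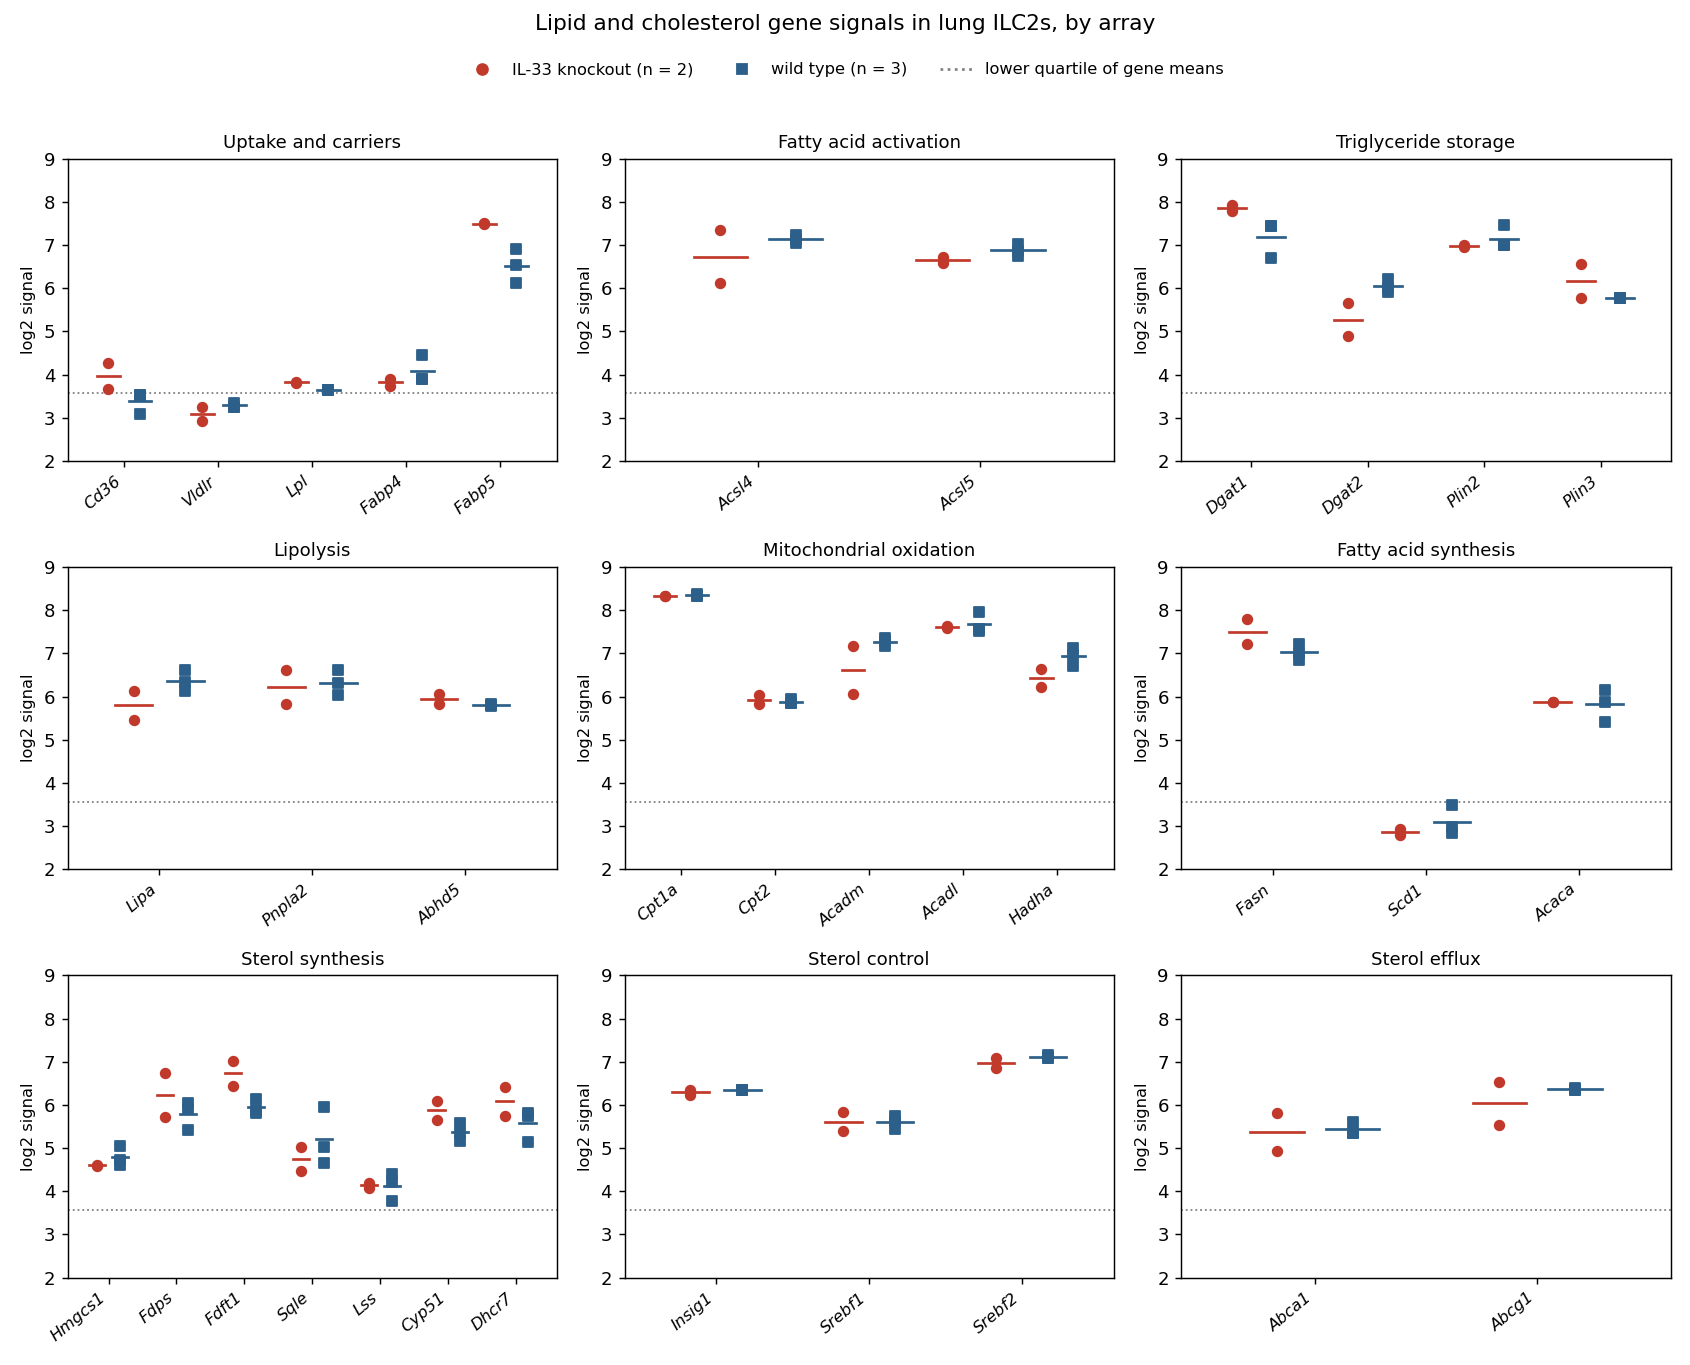
Log2 signal (vertical axis) of the 34 measured genes in each array, by role, with knockout arrays as red circles left of wild-type arrays as blue squares and short lines at the group means. The dotted line is the lower quartile of gene means, 3.56, under which Vldlr and Scd1 were left untested. Fabp5 and Fdft1 show both knockout arrays above wild type, and Dgat2 both below.

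Among genes of uptake and transport, Fabp5 and Lpl were higher in both knockout arrays than in every wild-type array, without passing the adjusted test. Over all genes tested, 11.6% were higher without overlap. Fabp5 encodes a cytosolic fatty acid binding protein of epidermal and immune cells. Its signal was 7.48 and 7.51 in knockout arrays, against 6.92, 6.12 and 6.54 in wild-type arrays. The knockout arrays nearly coincided and the wild-type arrays were spread over a wider range below them. The means were 7.50 ± 0.018 (SD, n = 2) in knockout and 6.52 ± 0.40 (SD, n = 3) in wild type, a 1.96-fold difference (log2 difference 0.97, SE 0.26, 95% interval 0.23 to 1.72). Its adjusted p with limma was 0.541. Fabp5 has 4 probe sets: a second bright one gave 7.52 and 7.46 in knockout arrays and 6.92, 6.07 and 6.57 in wild type, a difference of 0.98. The other two were dimmer and differed by 0.16 and 0.15, and averaging all 4 brought the difference to 0.57.

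Cd36, the scavenger receptor that takes up long-chain fatty acids, had a wild-type mean of 3.38, under the filter value of 3.56, and entered the test only through its knockout arrays. A gene that enters in this way had to be higher in knockout, so its difference is a description. It read 3.67 and 4.26 in knockout arrays, against 3.53, 3.53 and 3.09 in wild type. Both knockout arrays were above wild type, the nearest by a small margin, and the difference was 0.58. Lpl, which encodes the lipase that frees fatty acids from lipoproteins, read 3.83 and 3.80 in knockout arrays and 3.65 in each of the 3 wild-type arrays. Its difference was only 0.17 (95% interval 0.059 to 0.28, limma adjusted p = 0.490). The wild-type arrays hold the same value, so the spread behind this narrow interval may be understated. Its dimmer probe set differed by 0.032. Fabp4, the adipocyte and macrophage binding protein, read 3.73 and 3.91 in knockout arrays, against 3.91, 3.91 and 4.45 in wild type, and the groups overlapped. The lipoprotein receptor gene Vldlr, at 3.26 and 2.93 in knockout arrays and 3.34, 3.26 and 3.26 in wild type, was among the dim genes that were not tested.

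Lung endothelium, macrophages and adipocytes are known to express several of these uptake genes, so their markers are given beside them. Of 12 endothelial markers tested, 10 were higher and 2 lower in difference, and 5 were higher and 2 lower without overlap. Over all genes tested, 9506 of 16635 were above 0, 11.6% were higher and 6.32% lower without overlap. The mean of the 14 measured was 5.15 and 5.38 in knockout arrays and 4.96 to 5.08 in wild type. Cldn5, a tight junction gene of endothelium, was at 5.95 and 6.68 in knockout arrays against 5.13, 4.57 and 4.48 in wild type. The 2 markers lower without overlap were Calcrl and Kdr. Calcrl read 7.03 and 5.74 in knockout arrays against 7.05, 7.08 and 7.79 in wild type, a difference of -0.92. Kdr differed by -0.15, with equal wild-type values, and Pecam1 overlapped. Emcn and Tek were under the lower quartile of gene means. Gpihbp1, which anchors LPL on capillaries, is in both the endothelial and the uptake list. Macrophage and dendritic cell markers averaged 3.97 and 4.0 in knockout arrays and 3.73 to 4.16 in wild type over 13 genes, with 8 of the 11 tested higher and 3 lower, and Chil3 tested only through its knockout arrays. Siglecf, which marks alveolar macrophages, read 4.01 in both knockout arrays and 3.87, 4.08 and 4.01 in wild type. Adipocyte markers, 7 genes, averaged 4.06 and 4.05 in knockout arrays and 3.95 to 4.10 in wild type, with 3 of 6 tested higher. Adipoq was under the lower quartile of gene means. The part of other cells in the signals of Cd36, Lpl and Fabp5 was not tested.

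**Figure D2:**
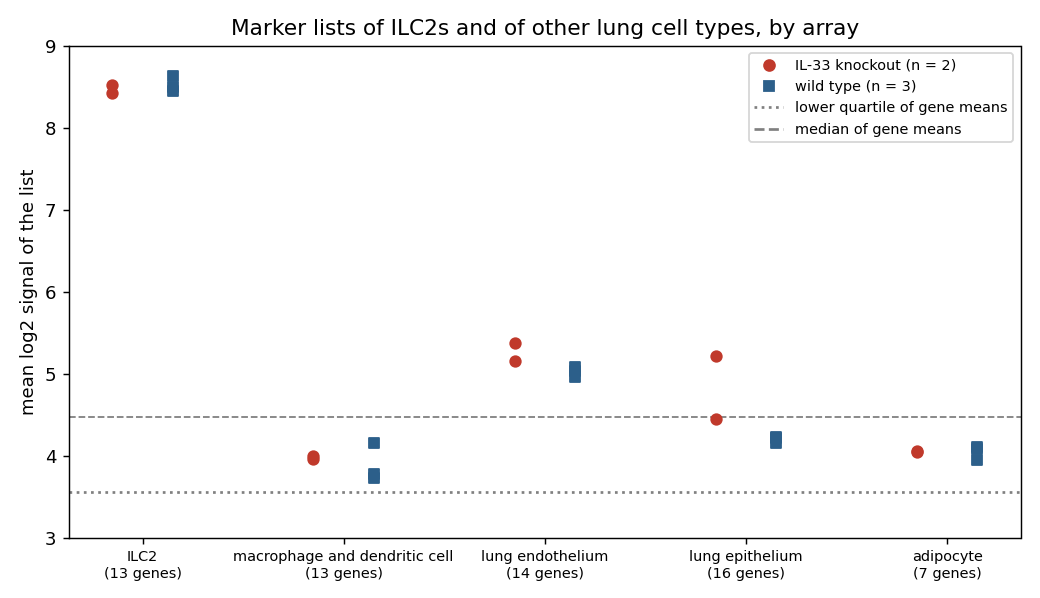
Mean log2 signal (vertical axis) of each marker list in each array, with knockout arrays as red circles and wild-type arrays as blue squares. The ILC2 list lies above 8.4 in all arrays, the endothelial and epithelial lists are higher in both knockout arrays, and the macrophage and adipocyte lists overlap.

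In triglyceride storage, the genes of both DGAT enzymes, which catalyse the last step of triglyceride synthesis, stood on opposite sides. Of the 4 storage genes tested, 1 was higher and 1 lower without overlap, where 11.6% and 6.32% of all genes tested were. Dgat1 read 7.93 and 7.79 in knockout arrays, against 6.69, 7.45 and 7.45 in wild type. Both knockout arrays lay above wild type, where replicate 1 was low. The difference was 0.67 (SE 0.29, 95% interval -0.16 to 1.49), a 1.59-fold higher signal in knockout with a limma adjusted p of 0.623. Dgat2, whose enzyme is related to DGAT1 by function and not by sequence, read 5.65 and 4.90 in knockout arrays and 5.91, 6.0 and 6.22 in wild type. Both knockout arrays lay below wild type, replicate 2 farther than replicate 1. The means were 5.27 ± 0.53 (SD, n = 2) in knockout and 6.04 ± 0.16 (SD, n = 3) in wild type, a difference of -0.77 (SE 0.27, 95% interval -1.52 to -0.015, limma adjusted p = 0.623). Plin2, the gene of the common droplet coat protein, read 7.01 and 6.96 in knockout arrays, against 7.47, 6.99 and 6.99 in wild type, with overlap. Plin3, a further droplet coat gene, read 5.77 and 6.56 in knockout arrays and 5.78 in each wild-type array, so 1 knockout array stood apart. Without knockout replicate 1 its difference was 0.79. In that fit the lone knockout array is the one with the high Xist signal, and the equal wild-type values give no spread.

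Of the 5 activation and lipolysis genes tested, none passed, and the groups overlapped for all but Acsl5. Over all genes tested, 18% had no overlap. Acsl5, an acyl-CoA synthetase gene, read 6.57 and 6.73 in knockout arrays, against 7.03, 6.74 and 6.86 in wild type. The groups did not overlap, by the narrow gap to wild type replicate 2, and the difference was -0.23 (95% interval -0.55 to 0.096, limma adjusted p = 0.623). Acsl4, the synthetase that prefers arachidonic acid, read 7.34 and 6.13 in knockout arrays and 7.22, 7.04 and 7.14 in wild type. Here the knockout arrays lay on both sides of wild type, 1.21 apart. Lipa, which encodes the lysosomal acid lipase that breaks down cholesteryl esters and triglycerides, read 5.46 and 6.13 in knockout arrays, against 6.34, 6.13 and 6.61 in wild type. Its knockout replicate 2 equalled wild type replicate 2, and the difference was -0.57 (95% interval -1.33 to 0.20). Pnpla2, the adipose triglyceride lipase gene, differed by -0.091 and Abhd5, its coactivator, by 0.14, both with overlap.

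Of the 5 genes of mitochondrial oxidation, 4 were below and 1 above 0 in difference, and 1 had no overlap, 20% against 18% of all genes tested. Hadha encodes the alpha subunit of the trifunctional protein, which carries out the later steps of long-chain oxidation. It read 6.63 and 6.21 in knockout arrays, against 7.12, 6.97 and 6.72 in wild type, all knockout values below all wild-type values. The difference was -0.51 (SE 0.19, 95% interval -1.05 to 0.032, limma adjusted p = 0.623). Acadm, the medium-chain acyl-CoA dehydrogenase gene, read 6.06 and 7.16 in knockout arrays and 7.29, 7.16 and 7.36 in wild type. Only knockout replicate 1 was below wild type, and the difference of -0.66 had an interval of -1.70 to 0.38. Cpt1a, the gatekeeper of fatty acid entry into mitochondria, read 8.33 in both knockout arrays and 8.33, 8.33 and 8.37 in wild type. Its 95% interval of -0.13 to 0.10 was among the narrowest, although 4 of its 5 values are equal. Cpt2, at 0.044, and Acadl, at -0.061, also overlapped.

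**Figure D3:**
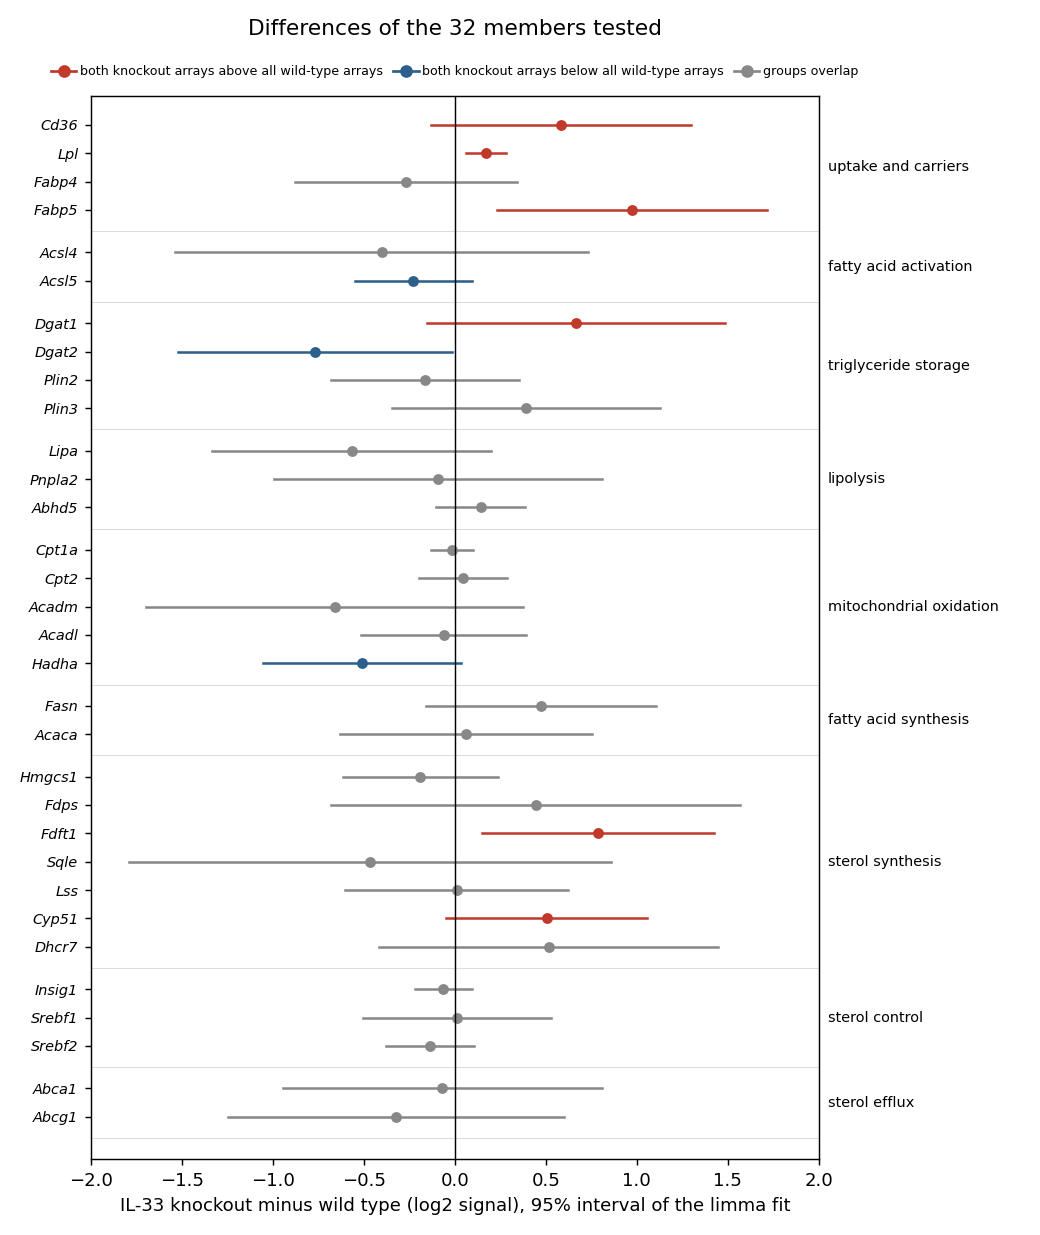
Difference of knockout minus wild type (horizontal axis, log2 signal) for the 32 genes tested, with the 95% interval of the limma fit, grouped by role. Red marks genes with both knockout arrays above and blue those with both below all wild-type arrays. Most intervals include 0, and the 4 that do not belong to Lpl, Fabp5, Dgat2 and Fdft1.

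Fatty acid synthesis had 2 genes tested. Fasn, fatty acid synthase, read 7.79 and 7.22 in knockout arrays, against 6.85, 7.01 and 7.23 in wild type, and knockout replicate 2 fell just within the wild-type range. Its difference was 0.47 (95% interval -0.16 to 1.10, limma adjusted p = 0.623). Acaca, whose product makes malonyl-CoA, read 5.88 in both knockout arrays and 5.42, 5.88 and 6.16 in wild type. Scd1, a desaturase gene, was dim, at 2.92 and 2.78 in knockout arrays and 2.97, 2.84 and 3.49 in wild type.

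Of the 7 sterol synthesis genes, 5 were above and 2 below 0 in difference, where 9506 of all 16635 genes tested were above 0. The groups did not overlap for 2, both higher, where 11.6% of all genes tested were higher without overlap. Their median difference was 0.45, the value of Fdps, and it was 0.29 without knockout replicate 1 and 0.068 without knockout replicate 2. Fdft1 encodes squalene synthase, the first enzyme committed to sterols. It read 6.43 and 7.03 in knockout arrays, against 5.89, 5.81 and 6.13 in wild type. Both knockout arrays lay above wild type. The means were 6.73 ± 0.42 (SD, n = 2) in knockout and 5.94 ± 0.17 (SD, n = 3) in wild type, a 1.72-fold difference (log2 difference 0.79, SE 0.23, 95% interval 0.15 to 1.42, limma adjusted p = 0.556). Cyp51, lanosterol demethylase, read 6.09 and 5.65 in knockout arrays and 5.35, 5.17 and 5.57 in wild type. Again both knockout arrays lay above wild type, replicate 2 closely, with a difference of 0.50 (SE 0.20, 95% interval -0.049 to 1.06, limma adjusted p = 0.623).

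The other sterol enzymes did not share one direction. Dhcr7, the last enzyme before cholesterol, read 5.75 and 6.42 in knockout arrays, against 5.14, 5.82 and 5.75 in wild type. One knockout array was high and the other equalled a wild-type array, for a difference of 0.52 (95% interval -0.42 to 1.45). Fdps, farnesyl diphosphate synthase, read 5.71 and 6.74 in knockout arrays and 6.03, 5.90 and 5.41 in wild type, with overlap. Hmgcs1, an early enzyme of the pathway whose window holds the sterol element letters, read 4.61 and 4.58 in knockout arrays, against 4.71, 4.61 and 5.04 in wild type. Its difference was -0.19 (95% interval -0.62 to 0.24). Sqle, squalene epoxidase, read 5.03 and 4.46 in knockout arrays and 5.94, 4.66 and 5.03 in wild type, and Lss, lanosterol synthase, differed by 0.012. Both overlapped.

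The genes that control sterol synthesis overlapped in all 3 cases. Srebf2, whose product activates sterol genes and whose own window also holds the sterol element letters, read 6.86 and 7.08 in knockout arrays, against 7.16, 7.08 and 7.08 in wild type. Srebf1, the isoform gene of fatty acid synthesis, differed by 0.013. Insig1, which retains SREBPs in the endoplasmic reticulum and is itself a sterol-responsive gene, read 6.35 and 6.23 in knockout arrays and 6.35 in each wild-type array. The exporter gene Abcg1 read 6.54 and 5.54 in knockout arrays, against 6.35, 6.38 and 6.35 in wild type, and Abca1 read 5.82 and 4.92 in knockout arrays, against 5.61, 5.35 and 5.35 in wild type. For both exporters knockout replicate 1 was above and replicate 2 below all wild-type arrays. Without knockout replicate 1 Abcg1 differed by -0.82, again with the single array of high Xist signal and with nearly equal wild-type values.

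Lung epithelium, in particular the surfactant-producing cells, is known to make much lipid, so its markers are given beside the synthesis genes. Of 14 epithelial markers tested, 12 were higher and 2 lower in difference, and 6 were higher without overlap, where 11.6% of all genes tested were. Nkx2-1, one of the 6, and Bpifa1 passed the filter only through knockout arrays. Without them, 5 of 12 had no overlap. The mean of the 16 measured was 5.22 and 4.45 in knockout arrays and 4.16 to 4.22 in wild type. Sftpc, a surfactant protein gene, read 5.90 and 5.74 in knockout arrays against 5.31, 4.47 and 4.83 in wild type, and Sftpb overlapped. Lamp3 and Scgb3a2 had means too low to be tested, although the airway secretory gene Scgb3a2 read 6.21 in knockout replicate 1, against 2.07 in knockout replicate 2 and 2.10, 2.20 and 2.20 in wild type. The part of epithelium in the signals of Fasn, Fdft1 and Cyp51 was not tested.

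The knockout arrays also differed from each other. They lay more than 0.5 apart for 14 of 32 members, 43.8%, against 24.3% of all genes tested. Besides Acsl4, Acadm, Abcg1 and Abca1, this held for Cd36, Dgat2, Plin3, Lipa, Pnpla2, Fasn, Fdps, Fdft1, Sqle and Dhcr7. Absolute differences of at least 0.5 between the genotypes were found for 10 members, 31.3%, against 13.1% of all genes tested. Cd36 is in both counts, although it entered the test only through its knockout arrays. The median SE was 0.23 for members and 0.16 for all genes tested, and the median member's 95% interval reached 0.63 to either side of its difference. Equal values were less common among members: 7 of 32 had 3 or fewer distinct values, against 5879 of 16635 genes tested. The comparisons in this paragraph do not account for that.

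The other genes of these pathways differed in both directions. Of 129 listed, 118 were measured and 106 tested, 55 above and 49 below 0, and 0 were called with limma. The groups did not overlap for 15 of them, 14.2%, against 18% of all genes tested. Of these, 7 were higher (11.6% of all genes) and 8 lower (6.32%), and the median difference was 0.0078. Of the 106, 6 had an unadjusted p below 0.05, 3 of them higher and 3 lower, where 7.64% of all genes did.

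In droplet storage, Hilpda, whose product coats droplets and inhibits adipose triglyceride lipase and is induced by hypoxia, had the widest difference of the 106. It read 8.70 and 9.19 in knockout arrays, against 7.99, 7.73 and 7.43 in wild type. Both knockout arrays lay well above wild type, a 2.34-fold difference (log2 difference 1.23, SE 0.24, 95% interval 0.54 to 1.91, limma adjusted p = 0.453). Agpat4, an acyltransferase gene of phospholipid and triglyceride precursors, read 4.68 and 4.42 in knockout arrays and 5.33, 5.31 and 5.31 in wild type. The difference was -0.77 (SE 0.093, limma adjusted p = 0.402), and the wild-type arrays were nearly equal. Among genes of uptake, the transporter genes Slc27a1 and Mfsd2a were 0.29 and 0.51 higher without overlap. None of the 9 lipolysis genes tested was without overlap, where 18% of all genes tested were.

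In oxidation, Hadh, the short-chain hydroxyacyl-CoA dehydrogenase gene, read 8.71 and 8.32 in knockout arrays against 8.08, 7.99 and 8.11 in wild type, a difference opposite in sign to that of Hadha. Etfa, a subunit of the flavoprotein that passes electrons from acyl-CoA dehydrogenases, read 7.04 and 6.98 in knockout arrays against 7.60, 7.34 and 7.83 in wild type. Their differences were 0.46 and -0.58, each with no overlap, at limma adjusted p of 0.566 and 0.556. The acyl-CoA thioesterase gene Acot7 read 6.56 and 6.13 in knockout arrays, against 6.78, 6.77 and 6.70 in wild type. In fatty acid synthesis, the ATP citrate lyase gene Acly read 6.67 and 6.03 in knockout arrays, against 6.69, 6.69 and 6.99 in wild type. For both, knockout replicate 2 lay farther below. The difference of Acot7 was -0.40, and -0.62 or -0.18 without knockout replicate 1 or 2. That of Acly was -0.44, and -0.76 or -0.12 without knockout replicate 1 or 2.

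In the sterol pathway, Lbr, a nuclear envelope protein with sterol reductase activity, read 5.19 and 5.55 in knockout arrays against 5.91, 6.22 and 6.46 in wild type. Its difference was -0.83 (SE 0.22, 95% interval -1.43 to -0.22, limma adjusted p = 0.531), opposite in sign to those of Fdft1 and Cyp51. Ggps1, of the branch to geranylgeranyl diphosphate, differed by -0.14 and the sterol carrier gene Stard4 by 0.33. Scap, the escort of SREBPs, differed by -0.38, with 7.47 and 6.76 in knockout arrays and 7.51, 7.48 and 7.49 in wild type, and by -0.086 when its probe sets were averaged. Abca7 differed by -0.25, and Ch25h, which encodes cholesterol 25-hydroxylase, by 0.29, or by 0.13 when its probe sets were averaged.

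**Figure D4:**
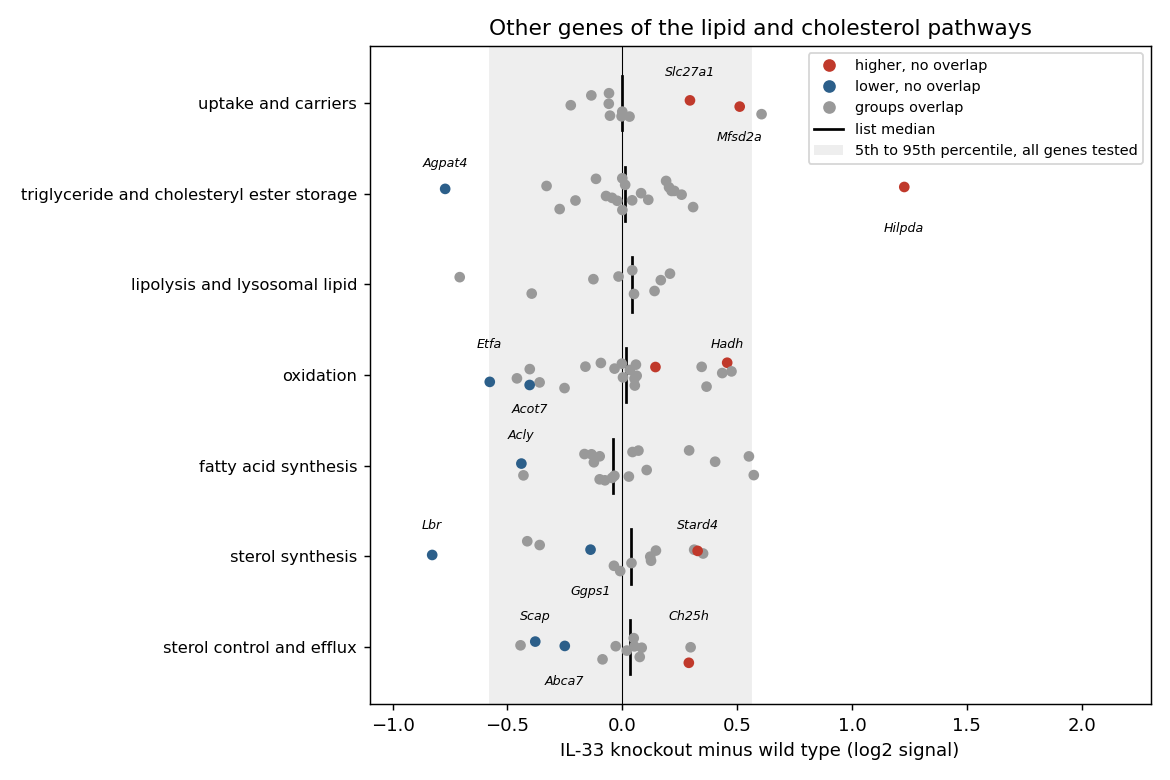
Difference of knockout minus wild type (horizontal axis, log2 signal) of the 106 other pathway genes tested, 1 point a gene, by list, with a vertical bar at each list median. Grey shading spans the 5th to 95th percentile over all genes tested, -0.58 to 0.56. Hilpda lies far to the right and Lbr and Agpat4 to the left of the shading, while the list medians stay near 0. Npc2, at -0.71, also lies to the left, and Gpihbp1 and Hacd2, at 0.61 and 0.57, to the right, each with overlapping groups.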

How the data were processed

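Total RNA of lung ILC2s was hybridised to Affymetrix arrays after biotin labelling, per the labels' protocols. As deposited, each probe set has a log2 signal per array, and the submitters' processing notes name RMA and Affymetrix Expression Console. Versions and settings are not given in the sources used here. Such normalization would hide a shift of all transcripts together. Of 41345 probe sets, 23521 had 1 symbol, 1814 several and 16010 none. A gene was represented by its brightest probe set on average, and the dimmest 25% of genes were dropped, which left 16635. All 34 members measured matched RefSeq gene identifiers (GRCm38.p6), and sequences are from RefSeq.

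The test of genotype was limma 3.58.1 under R 4.3.3 (lmFit, eBayes, Benjamini-Hochberg over all genes tested, threshold 0.05, no block). The procedure was also run on simulated data with independent noise, which hold no equal values, so that run does not cover the equal values seen here. The number of arrays limits the precision. The labels call the arrays biological replicates and do not say whether each is 1 mouse or a pool, so p-values measure the spread between these samples. Members and lists were chosen with earlier results of these data known. Members with no overlap of the groups or a difference of at least 0.5 are given in full, with up to 3 other genes a list by lowest p among those without overlap. Alternatives covered the filter, probe sets, scaling, variance model, array weights, replicate block, thresholds and each array left out. A two-sided exact permutation of 5 arrays cannot reach 0.05, so none is given.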

Additional observations from a re-analysis of the deposited data

How the results depend on the processing

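Calls depended on single knockout arrays. Without each array in turn, 0 to 1072 genes and 0 to 2 members were called with limma. The 1072 genes, with the members Plin3 and Abcg1 and the other pathway genes Agpat4, Acot7 and Scap, passed without knockout replicate 1, and 389 genes, with no member and with Agpat4, without knockout replicate 2. Those fits give the lone knockout array the spread seen in wild type, where the values of Plin3 were equal and those of Abcg1 nearly so. Members without overlap numbered 10 to 22 in these fits, with 22 without either knockout array, where 54.0% (replicate 1 left out) and 47.8% (replicate 2 left out) of all genes had none. Without wild-type replicate 1, 2 or 3, members without overlap numbered 11, 13 and 10. Of all genes, 24.1%, 24.4% and 24.8% had none in those fits. With median centring of the arrays, 16 members had no overlap, against 32.9% of all genes, and centring makes equal values unequal. At an unadjusted p below 0.05, a rule added after seeing the data, there were 1271 genes and 4 members. The other alternatives called 0 genes: no filter, a stricter one, averaged probe sets, quantile normalization, median centring, other variance models, array weights, an adjusted p of 0.1 and, added after seeing the data, genes with at least 4 distinct values. The count over genes above the filter in both genotypes, 8 members without overlap, was also added after seeing the data. The sizes of single genes moved with the knockout array left out: Scap ranged from -0.74 to -0.022 and Acadm from -1.21 to -0.11. Most named genes were chosen for groups that do not overlap, which fixes their sign. The members' median difference ranged from -0.067 to 0.031 without single arrays. The replicate numbers are shared by 2 arrays of each genotype and were not shown to pair them: same-numbered arrays deviated together with r = -0.046 and 0.14 across genes. With the replicate block, 0 genes were called and the members' median difference was -0.032.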
